A study of Mus musculus with 20 samples.

Results

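BDNF signalling and the translation machinery beneath it were described here through 9 genes among the 31053 counted in single-cell RNA libraries of the basolateral amygdala (BLA). The genes are Bdnf and Ntf3, which encode neurotrophins, Ntrk2, Ntrk3 and Ngfr, which encode their receptors, Sort1, which encodes a sorting receptor, and Eef2, Eef2k and Mtor, which encode an elongation factor and kinases that control translation. They were picked by symbol, and the rule used no expression value. The libraries came from 10 wild type C57BL/6 mice aged 13 weeks, 1 library per mouse, in 4 groups. The mice drank corticosterone (CORT, 35 µg/ml) or the vehicle 2-hydroxypropyl cyclodextrin (BCD) for 6 weeks and then received ketamine (Ket, 10 mg/kg) or saline (Sal) once, 24 h before the tissue was taken. The labels, the study's Results and its corticosterone methods name BCD for the control mice. Its single-cell methods speak of plain drinking water instead, and this difference was not resolved here. BCD/Sal had 2 mice, BCD/Ket 3, CORT/Sal 2 and CORT/Ket 3. The study asked what chronic corticosterone, a model of chronic stress, does to the brain and what a single dose of ketamine then changes.

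BDNF is released by neurons and acts through TrkB, the receptor tyrosine kinase encoded by Ntrk2, on growth, survival and synaptic plasticity. Its precursor, proBDNF, binds p75NTR (Ngfr) together with sortilin (Sort1), and neurotrophin-3 (Ntf3) acts mainly through TrkC (Ntrk3). The kinase eEF2K (Eef2k) phosphorylates eEF2 and thereby slows the elongation of proteins, among them BDNF, while mTOR, reached by TrkB through PI3K and AKT, raises the initiation of translation and restrains eEF2K, and the fast action of ketamine has been linked to this circuit. Phosphorylation, secretion and protein amounts are not visible in these data, which count RNA molecules. Ntrk2 gives both the full-length kinase receptor and truncated forms without the kinase, and counts per gene do not tell these apart.

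Bdnf has several transcription start sites, each with its own first exon. The sequence shown here is the one among the 7 annotated Bdnf start windows that holds the core of a cyclic AMP response element, TGACG or its reverse complement CGTCA, in the 250 bases before the start. It is RefSeq sequence of build GRCm38.p6, chr2:109692186-109692435, plus strand, and the capitals mark the motif, which begins 35 bases before the start.

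Bdnf start window: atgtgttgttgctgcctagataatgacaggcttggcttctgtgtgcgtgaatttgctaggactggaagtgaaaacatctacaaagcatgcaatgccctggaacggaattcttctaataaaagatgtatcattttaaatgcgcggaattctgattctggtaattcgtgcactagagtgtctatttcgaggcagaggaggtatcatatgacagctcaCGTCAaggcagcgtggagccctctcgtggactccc

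Of 32851 start windows of all genes, 5836 (17.8%) held the same letters on either strand. The reads were counted per gene, so they do not tell which Bdnf start was used, and the match is a description of the sequence. On NCBIM37, the build the study names, Bdnf (ENSMUSG00000048482) lies at chr2:109514857-109567204 on the plus strand, Ntrk2 (ENSMUSG00000055254) at chr13:58907957-59235331 on the plus strand and Eef2k (ENSMUSG00000035064) at chr7:127986345-128050733 on the plus strand, in the GENCODE M1 annotation.

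The files held 28722 barcodes, and 8305 had at most 12.5% mitochondrial molecules and at least 200 genes. Depth before this filter ran from 811628 to 7281768 unique molecular identifiers (UMIs, 1 per captured RNA molecule) per library. The library of CORT/Sal mouse 9970 stood apart, with 97.1% of its barcodes kept against 16.8 to 31.0% in the other 9 mice. All kept barcodes were clustered without the 9 genes or their pathway, and clusters were named by markers. A cluster of 2349 barcodes that came almost only from that mouse (99.8%) held the excitatory marker Slc17a7 at 1038 CPM (counts scaled to a total of 1000000 UMIs) and the inhibitory marker Gad1 at 139 CPM, was left unnamed and was kept out of the main comparisons. The 9 classes used here held 1154 excitatory neurons, 260 inhibitory neurons, 1297 astrocytes, 406 oligodendrocyte precursors, 378 oligodendrocytes, 864 microglia, 1096 endothelial cells, 269 mural cells and 52 other immune cells. The excitatory neurons carried Slc17a7 at 977 CPM in the larger of their clusters and 1248 CPM in the smaller. Rspo2, a gene of basolateral amygdala neurons, was at 18.2 and 2.76 CPM in these clusters. An inhibitory cluster of 123 cells had Penk and Drd1 among its leading genes, both best known from striatal projection neurons. A mouse entered a class mean with at least 10 cells of that class, and levels are given in CPM of the class.

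Among the ligands, Bdnf was detected almost only in excitatory neurons. Of 276 Bdnf UMIs in the named classes, 265 (96.0%) were in excitatory neurons, a class with 22.1% of all UMIs. The mean level was 94.5 ± 47.7 CPM (SD, n = 10 mice), with a lowest value of 31.4, a median of 83.7 and a highest of 161 CPM. Every one of the 10 mice had Bdnf UMIs in this class. Astrocytes came next at 2.48 ± 2.54 CPM (n = 7), and inhibitory neurons held 1 Bdnf UMI, in 1 of 8 mice. Endothelial cells, mural cells, oligodendrocytes and other immune cells held none, which for the 1096 endothelial cells allows a share of cells with a UMI of up to 0.274%. Bdnf was higher in excitatory neurons than in astrocytes in 7 of 7 mice (exact sign-flip permutation test, two-sided, p = 0.0156, the smallest that 7 pairs allow).

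None of the tests of this kind passed after adjustment. Each member with at least 100 UMIs had its 9 classes put in order of the mean, and neighbours in that order were compared over the mice that had both, which made 56 tests. The smallest adjusted p of these was 0.146, although 12 of the 56 had an unadjusted p under 0.05. A fit over 7757 genes with class and mouse as terms (edgeR, TMM factors), added after this was seen, was therefore set beside them. It gave Bdnf a log2 difference of 4.41 (SE 0.60, 95% interval 3.22 to 5.59, adjusted p = 4.9e-19) between excitatory neurons and astrocytes. In the same fit 33.8% of all genes were higher in excitatory neurons than in astrocytes. The classes were drawn from other genes of the same cells, and the p-values of this fit do not include the error of naming the cells. Over 6 members it called 13 of 48 neighbour pairs, where 46.2% of all genes were called in either direction over the same pairs, and Mtor was too low to enter it. These pairs were neighbours in each member's own order of means, which favours small differences for the members. The shares therefore do not measure how class-specific the members are against other genes.

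**Figure D1:**
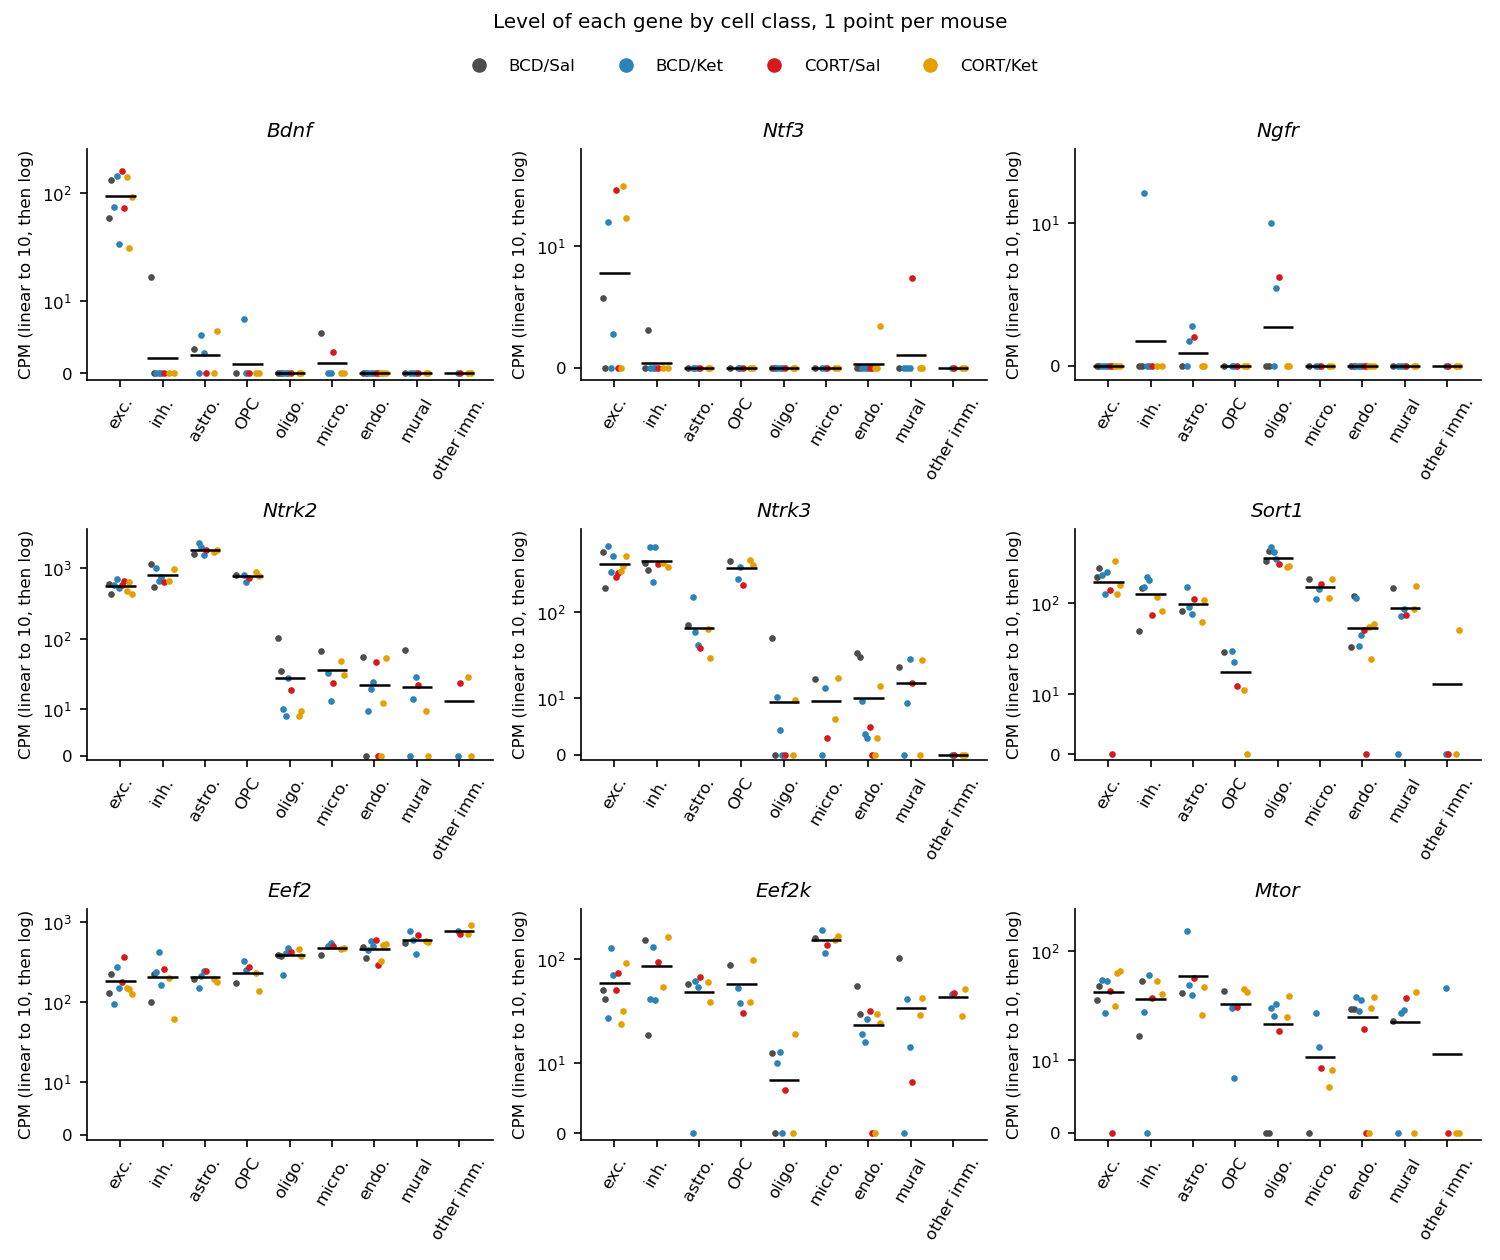
Level of each gene in CPM (linear to 10, log above) in 9 cell classes, with 1 point per mouse coloured by group and a black bar at the mean over mice. Bdnf sits above 30 CPM in the excitatory neurons of all 10 mice and under 20 CPM elsewhere, Ntrk2 is highest in astrocytes, Sort1 in oligodendrocytes and Eef2k in microglia.

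Bdnf was unevenly spread among the excitatory neurons themselves. At least 1 UMI was found in 117 of 1154 cells (10.1%, exact 95% interval 8.46 to 12.03%), against 0.540% of astrocytes (0.217 to 1.11%), a class with a median of 1617 UMIs per cell against 1407 in excitatory neurons. With each cell thinned to 1000 UMIs the shares were 5.49% of 729 excitatory neurons and 0.208% of 960 astrocytes. Of the positive cells, 72 had a single Bdnf UMI. The 21 cells with 3 or more held 145 of the 265 UMIs, and 1 cell of CORT/Sal mouse 9969 held 23. Such cells occurred in 7 of the 10 mice, and 17 of the 21 were in the smaller of the excitatory clusters. Ntrk2 UMIs were found in 76.9% of the cells with Bdnf and in 51.6% of those without, but the former had a median of 3112 UMIs per cell and the latter 1290, and the part of this depth was not tested. Over the 66 points of mouse and class, the genes most like Bdnf on log2(CPM + 10) were Slc30a3 (Pearson r = 0.923), Tbr1 (r = 0.896) and Rtn4r (r = 0.891).

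The excitatory neurons fell into clusters of 852 and 302 cells that differed in depth and in nuclear RNA. The larger one (cluster 4) had a median of 1231.5 UMIs per cell and more Malat1 and Meg3, long noncoding RNAs that stay in the nucleus. The smaller one (cluster 7) had a median of 3124 UMIs and more Nrgn, which encodes the postsynaptic protein neurogranin. Pooled Bdnf was 59.4 CPM (exact Poisson 95% interval 47.6 to 73.2) in cluster 4 and 122 CPM (105 to 142) in cluster 7, intervals that cover counting error only. Over the 8 mice with at least 10 cells in both, Bdnf was higher in cluster 7 in 6 (mean log2 difference 0.93 ± 1.77 SD, exact permutation p = 0.203, adjusted 0.284), a difference within the spread between mice. Sort1 was higher in cluster 7 in 7 of 8 mice (exact permutation p = 0.0156, adjusted over 7 genes 0.0729) and so was Eef2 (exact permutation p = 0.0234, adjusted 0.0729), while Ntrk3 was higher in cluster 7 in 1 of 8 (exact permutation p = 0.031, adjusted 0.0729), and none passed. Malat1 was lower in cluster 7 in all 8 mice (exact permutation p = 0.0078, unadjusted).

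Ntf3, the TrkC ligand, was rare. It had 28 UMIs in the named classes, 25 of them in excitatory neurons, where it was found in 23 of 1154 cells (1.99%, exact 95% interval 1.27 to 2.98%). The mean was 7.73 ± 8.64 CPM (n = 10), with UMIs in 6 of the 10 mice and 21.0 CPM in the highest. No Ntf3 UMI was seen in 1297 astrocytes, which allows a share of up to 0.231%. Ngfr, the p75NTR gene, had 10 UMIs in the named classes, spread over astrocytes (3), oligodendrocytes (3), fibroblasts (2), inhibitory neurons (1) and other immune cells (1). None was in 1154 excitatory neurons, which allows up to 0.260% of these cells to have a UMI, so a lower share was not detectable at this depth.

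Of the receptors, Ntrk2 was highest in astrocytes. The level there was 1827 ± 247 CPM (n = 7), with 1567 CPM in the lowest mouse, 1799 at the median and 2269 in the highest. Astrocytes held 59.8% of the Ntrk2 UMIs with 19.4% of all UMIs, and 87.4% of their cells had at least 1 (exact 95% interval 85.5 to 89.2%). Inhibitory neurons followed at 794 ± 222 CPM (n = 8), oligodendrocyte precursors at 771 ± 80.1 CPM (n = 6) and excitatory neurons at 561 ± 96.3 CPM (n = 10). The astrocyte level exceeded that of inhibitory neurons in 6 of 6 mice (exact permutation p = 0.031, the smallest for 6 pairs), with a log2 difference of 1.43 (SE 0.21, adjusted p = 6.5e-10) in the edgeR fit, where 24.5% of all genes were lower in inhibitory neurons. Inhibitory neurons and precursors were within their spread (log2 difference 0.05, 95% interval -0.39 to 0.49 in that fit). The inhibitory mean covers cluster 9, at 979 ± 238 CPM (n = 6), and cluster 10, with Penk and Drd1 among its leading genes, at 624 ± 169 CPM (n = 3). Ntrk2 was higher in cluster 10 in 0 of 3 mice (mean log2 difference -0.60 ± 0.18 SD, exact permutation p = 0.25, the smallest for 3 pairs). By these means the precursors lay between the clusters. Precursors were above excitatory neurons in 6 of 6 mice (exact permutation p = 0.031), but the fit gave adjusted p = 0.142.

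Among the classes used here, Ntrk2 dropped steeply below these 4. Ependymal and choroid plexus cells, which were not among those classes, also carried it. Ependymal cells held 180 Ntrk2 UMIs (2.35%) with 1.28% of all UMIs, so their pooled level was not below that of inhibitory neurons. Choroid plexus cells held 43 (0.561%) with 0.728% of all UMIs. Microglia had 35.6 ± 19.0 CPM (n = 6), with a log2 difference of 3.68 from excitatory neurons (SE 0.29, edgeR adjusted p = 1.6e-27), and 37.1% of all genes were called higher in excitatory neurons in that contrast. Oligodendrocytes, endothelial cells, mural cells and other immune cells had means of 12.9 to 27.2 CPM, and no neighbouring pair among them passed either test. Between 3.70 and 5.77% of the cells of these classes and of microglia had an Ntrk2 UMI. The most similar genes over the 66 points of mouse and class were Gpm6a (Pearson r = 0.953), Nrcam (r = 0.950) and Gria2 (r = 0.947), on log2(CPM + 10), where points of 1 mouse share a library.

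Ntrk3 was shared by neurons and oligodendrocyte precursors. Inhibitory neurons had 399 ± 125 CPM (n = 8), excitatory neurons 371 ± 127 CPM (n = 10) and precursors 327 ± 82.3 CPM (n = 6). No difference was detected between the neuronal classes (higher in inhibitory neurons in 4 of 8 mice, exact permutation p = 0.648), and the interval of the log2 difference in the edgeR fit was -0.35 to 0.33. Astrocytes, the class with most Ntrk2, had 65.1 ± 40.9 CPM of Ntrk3 (n = 7). They were below precursors in 6 of 6 mice, by a log2 difference of 2.28 (SE 0.22, edgeR adjusted p = 2.7e-18), where 21.1% of all genes were lower in astrocytes. They were above mural cells in 7 of 7 mice (exact permutation p = 0.0156), by 2.04 in that fit (edgeR adjusted p = 2.6e-05, 27.3% of all genes higher). Mural cells, endothelial cells, microglia and oligodendrocytes had means of 9.29 to 14.7 CPM, and other immune cells had no Ntrk3 UMI. The genes most similar to Ntrk3 were Gm45159 (r = 0.941), Dpp6 (r = 0.935) and Epha5 (r = 0.933).

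Sort1 followed another order, led by oligodendrocytes at 316 ± 60.5 CPM (n = 8). These had 250 CPM in the lowest mouse, 299 at the median and 412 in the highest. They exceeded excitatory neurons, at 171 ± 80.4 CPM (n = 10), in 8 of 8 mice (exact permutation p = 0.0078, the smallest for 8 pairs), with a log2 difference of 1.05 (SE 0.17, edgeR adjusted p = 1.2e-08). In that contrast 28.2% of all genes were lower in excitatory neurons. Microglia (150 ± 32.8 CPM, n = 6) were not told apart from excitatory neurons (log2 difference of excitatory neurons -0.18, 95% interval -0.54 to 0.18, edgeR adjusted p = 0.377). Microglia were above inhibitory neurons (125 ± 53.0 CPM, n = 8) in that fit (edgeR adjusted p = 0.000121, where 29.1% of all genes were lower in inhibitory neurons), but in only 3 of 5 mice. The inhibitory mean covers clusters that lay apart, with Sort1 at 64.5 ± 33.6 CPM (n = 6) in cluster 9 and 214 ± 9.85 CPM (n = 3) in cluster 10, the one with Penk and Drd1 among its leading genes. It was higher in cluster 10 in 3 of 3 mice (mean log2 difference 1.36 ± 0.41 SD, exact permutation p = 0.25, the smallest that 3 pairs allow), so the place of microglia above inhibitory neurons did not hold for both clusters by their means. Mural cells were above endothelial cells by a log2 difference of 0.83 in that fit (edgeR adjusted p = 0.0144, 9.39% of all genes). They were higher in 6 of 7 mice, but the paired mean log2 difference was 0.46 ± 1.86 SD (exact permutation p = 0.578). Endothelial cells were above oligodendrocyte precursors by 1.59 (edgeR adjusted p = 0.000313, 30.8% of all genes), in 6 of 6 mice (exact permutation p = 0.031). Oligodendrocyte precursors had 17.4 ± 11.7 CPM (n = 6), so within the oligodendrocyte lineage the mature cells were high and the precursors low, while Ntrk2 was at 27.2 CPM in the mature cells and 771 CPM in the precursors. No gene resembled Sort1 closely across classes, the nearest being Mapk8ip3 (r = 0.651), Hdac11 (r = 0.647) and Wdr37 (r = 0.645).

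**Figure D2:**
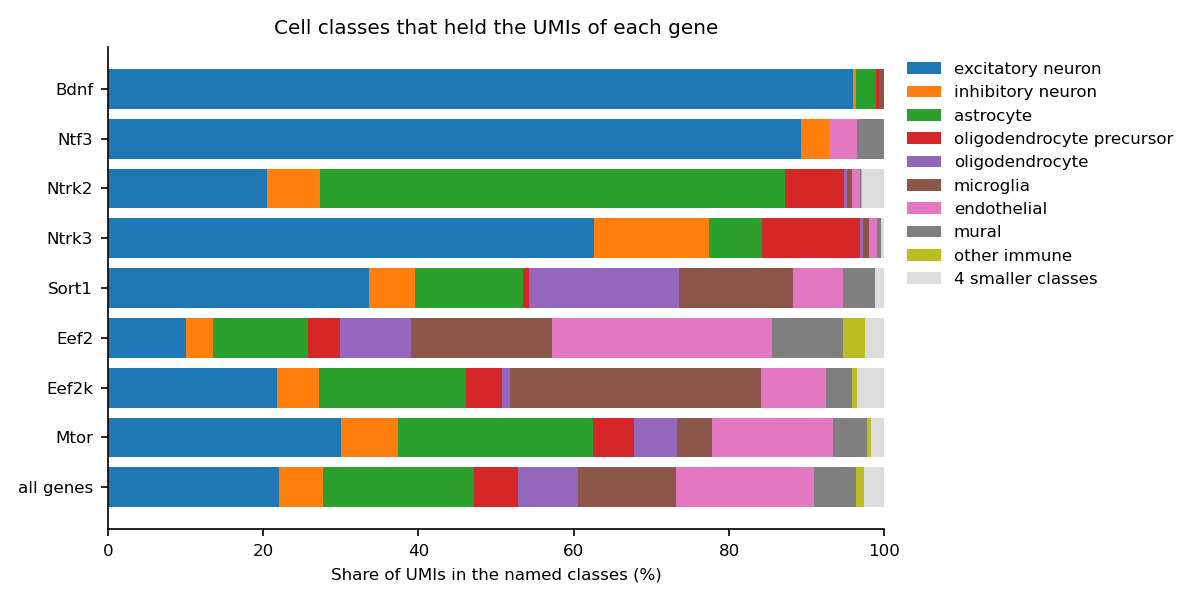
Share of the UMIs of each gene that each cell class held (percent of the UMIs in the named classes), with all genes together in the bottom bar. Excitatory neurons held 96.0% of the Bdnf UMIs, astrocytes 59.8% of the Ntrk2 UMIs and microglia 32.3% of the Eef2k UMIs, while Ngfr with 10 UMIs is left out.

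Among the translation genes, Eef2 and its kinase had different orders. Eef2, whose product moves the ribosome along the message, was present in every mouse of every class. It was highest in other immune cells (781 ± 95.6 CPM, n = 4) and mural cells (594 ± 118 CPM, n = 7) and lowest in excitatory neurons (184 ± 82.2 CPM, n = 10). No neighbouring pair from other immune cells through mural cells, microglia (482 CPM) and endothelial cells (466 CPM) down to oligodendrocytes passed in the edgeR fit. Other immune cells against mural cells gave a log2 difference of 0.21 (95% interval -0.32 to 0.74, edgeR adjusted p = 0.601), and mural cells against microglia reversed to -0.13 (interval -0.53 to 0.26, edgeR adjusted p = 0.611), so the leading classes were not told apart. The lowest, median and highest excitatory values were 94.4, 149 and 364 CPM, the highest from 5 UMIs of mouse 9970. The excitatory mean covers cluster 4, with more Malat1 and Meg3, at 122 ± 76.6 CPM (n = 8) and cluster 7 at 219 ± 138 CPM (n = 10). By its mean cluster 7 was thus not below astrocytes. Pooled over mice it was, at 181 against 213 CPM. The unnamed cluster of mouse 9970 had Eef2 at 601 CPM. The part of nuclear RNA in this order was not tested. Astrocytes, next above at 203 ± 33.7 CPM (n = 7), were higher than excitatory neurons in 6 of 7 mice (exact permutation p = 0.031) and by a log2 difference of 0.53 (SE 0.19, edgeR adjusted p = 0.0124), where 30.5% of all genes were lower in excitatory neurons. Oligodendrocytes (391 ± 77.7 CPM, n = 8) were above their precursors in 6 of 6 mice by a log2 difference of 1.11 (edgeR adjusted p = 6.1e-06, 20.3% of all genes). Among its nearest genes were Actb (r = 0.874) and Rps16 (r = 0.860), which encodes a ribosomal protein.

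Among the 9 classes, Eef2k was highest in microglia. They had 151 ± 24.8 CPM (n = 6), with 113 CPM in the lowest mouse, 154 at the median and 186 in the highest, and held 32.3% of its UMIs with 12.6% of all. Ependymal cells, too few for a class mean with at most 11 cells in a mouse, held 27 Eef2k UMIs (3.42%) with 1.28% of all UMIs, so their pooled level was not below that of microglia. The next class, inhibitory neurons, had 86.0 ± 55.4 CPM (n = 8) and was lower in 5 of 5 mice (exact permutation p = 0.0625, the smallest for 5 pairs), with an edgeR log2 difference of 1.18 (SE 0.31, adjusted p = 0.000197) where 29.1% of all genes were lower in inhibitory neurons. Excitatory neurons had 58.4 ± 32.2 CPM (n = 10) and were not told apart from inhibitory neurons (95% interval of the log2 difference -0.26 to 0.93, edgeR adjusted p = 0.598). With counts pooled over mice, Eef2k was at 57.4 CPM in inhibitory neurons, 58.7 CPM in excitatory neurons and 57.2 CPM in astrocytes. Oligodendrocytes were lowest at 7.60 ± 7.25 CPM (n = 8), below endothelial cells in 8 of 8 mice (exact permutation p = 0.0078), with an edgeR log2 difference of 1.70 (adjusted p = 0.00154, where 31.8% of all genes were lower in oligodendrocytes). Mtor ran from 10.6 ± 9.09 CPM in microglia (n = 6) to 58.5 ± 42.0 CPM in astrocytes (n = 7), and no neighbouring pair differed at an unadjusted p under 0.05 (smallest exact permutation p = 0.172). The highest astrocyte value, 151 CPM in BCD/Ket mouse 9946, was 1 UMI. Pooled over mice, Mtor was at 43.6 CPM in astrocytes and 46.1 CPM in excitatory neurons. Over the 66 points, Eef2k was most like Lrp1 (r = 0.764), Lpin2 (r = 0.756) and AC149090.1 (r = 0.753), and the genes nearest to Mtor included Trim39 (r = 0.726) and Ylpm1 (r = 0.693).

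The treatments were compared on the UMIs summed per mouse and class, with ketamine and corticosterone as terms of 1 edgeR fit, and then between single groups. Replicates are separate mice by the labels. The 7 comparisons (ketamine, corticosterone, 4 pairs of groups and the difference of the ketamine effects) made 34 class by comparison tests, with 149 tests on the members. Ketamine, corticosterone and CORT/Ket against BCD/Ket were tested in 8 classes, and BCD/Ket against BCD/Sal in 4. Only 2 classes, excitatory neurons and endothelial cells, had tests of CORT/Ket against CORT/Sal, of the difference of effects and of CORT/Sal against BCD/Sal. In the other classes, astrocytes and microglia among them, those comparisons were not tested. None of the 149 passed an adjusted p of 0.05, where 0.0325% of the tests over all genes did. By comparison that share was 0.00291% for ketamine, 0.0552% for corticosterone, 0.00527% for BCD/Ket against BCD/Sal, 0% for CORT/Ket against CORT/Sal, 0.0458% for CORT/Sal against BCD/Sal, 0.0664% for CORT/Ket against BCD/Ket and 0% for the difference of the ketamine effects. DESeq2 called none of them either. At an unadjusted p under 0.05 there was 1 of the 149, where the share was 2.68% of the tests over all genes. Bdnf, Ntf3 and Ngfr were too rare to be tested outside excitatory neurons, and Ntf3 and Ngfr in any class. In simulated counts of the same depth, the ketamine comparison recovered 51.5 to 82.5% of genes changed 4-fold, by class. Those counts had a dispersion set to 0.1 and no corticosterone effect, and the changed genes were drawn from those deep enough to test. The spread of the real counts was not matched, so these shares do not give the power of the comparisons above.

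Bdnf in excitatory neurons showed the spread that limits these comparisons. The BCD/Sal mice had 59.5 and 134 CPM, from 52 and 42 UMIs. The BCD/Ket mice had 33.5, 74.2 and 144 CPM, from 12, 11 and 16 UMIs. The CORT/Sal mice had 72.8 and 161 CPM, the former from a single UMI of mouse 9970, and the CORT/Ket mice had 31.4, 93.2 and 142 CPM. Each group had a mouse under 75 and a mouse over 130 CPM, and all 4 groups overlapped. Its fold changes are given although no test called them and were picked for this after the values had been seen. Ketamine against saline gave a log2 fold change of -0.48 (SE 0.42, 95% interval -1.34 to 0.38, adjusted p = 1.00, edgeR) and corticosterone against BCD 0.40 (SE 0.41, interval -0.46 to 1.25, adjusted p = 1.00, edgeR). Without mouse 9970 these were -0.57 and 0.47. No difference was detected between the ketamine effects with and without corticosterone (edgeR log2 difference of the effects -0.17, SE 0.85, adjusted p = 1.00).

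**Figure D3:**
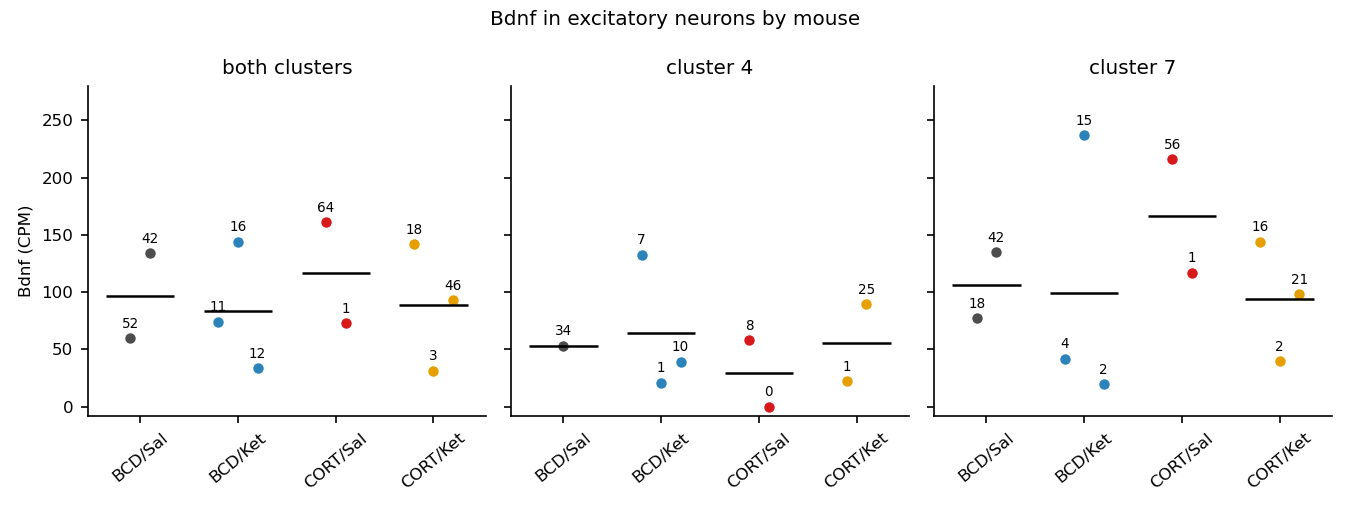
Bdnf level in CPM (linear axis) in all excitatory neurons and in each of their clusters, with 1 point per mouse with at least 10 cells, its Bdnf UMI count above it and a black bar at the group mean. The 4 groups overlap in all excitatory neurons, and several points rest on fewer than 5 UMIs.

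No treatment difference was detected for Ntrk2 where it was high. In astrocytes the BCD/Sal mouse had 1594 CPM, the BCD/Ket mice 1567, 2008 and 2269 CPM, the CORT/Sal mouse 1799 CPM and the CORT/Ket mice 1711 and 1844 CPM. The highest of these rested on 11 cells. The groups overlapped, and the 95% interval of the log2 fold change, given after the values were seen, was -1.02 to 0.95 for ketamine and -0.76 to 1.05 for corticosterone. In excitatory neurons the group means ran from 508 CPM in BCD/Sal to 615 CPM in CORT/Sal, with intervals of -0.52 to 0.66 for ketamine and -0.71 to 0.44 for corticosterone.

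The 1 unadjusted call was Ntrk2 in endothelial cells, a class with little of it. The saline mice had 0, 0, 46.2 and 55.0 CPM and the ketamine mice 0, 9.47, 11.9, 19.4, 23.6 and 52.0 CPM, so the groups overlapped. The values of 0 came from the libraries with the fewest endothelial UMIs. These were BCD/Sal mouse 9947 (33734 UMIs), CORT/Sal mouse 9970 (3411) and CORT/Ket mouse 9967 (18197). A count of 0 at such depth does not exclude a low level. The log2 fold change was -0.88 (SE 0.46, 95% interval -1.78 to 0.02, unadjusted p = 0.0491, adjusted p = 0.999, edgeR), where the p comes from the quasi-likelihood test and the interval from the Wald error. Without BCD/Sal mouse 9901 it was -0.36 (edgeR adjusted p = 1.00). The summed level of the 15 astrocyte markers in these endothelial cells was 0 to 1352 CPM in the saline mice and 199 to 1209 CPM in the ketamine mice, highest in mouse 9901, and its part in the result was not tested.

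The remaining members are given by group. In excitatory neurons Ntrk3 had group means of 277 CPM in CORT/Sal, 350 in BCD/Sal, 370 in CORT/Ket and 450 in BCD/Ket. Sort1 in oligodendrocytes was at 290 and 374 CPM in the BCD/Sal mice, 307, 365 and 412 CPM in the BCD/Ket mice, 267 CPM in the CORT/Sal mouse and 250 and 259 CPM in the CORT/Ket mice. Each of the 5 BCD mice was above each of the 3 CORT mice, and how many other genes parted them so was not counted. For corticosterone edgeR gave a log2 fold change of -0.43 (SE 0.28, unadjusted p = 0.138, adjusted p = 0.718), so no difference was detected. Of the 2629 genes in that comparison, 209 had an unadjusted p under 0.05, and Sort1 was not among them. Sort1 was singled out after its values were seen. Eef2k in microglia was at 156 CPM in the BCD/Sal mouse, 113 and 186 CPM in the BCD/Ket mice, 136 CPM in the CORT/Sal mouse and 152 and 163 CPM in the CORT/Ket mice, and in excitatory neurons its group means ran from 45.9 to 74.3 CPM. Mtor in excitatory neurons had group means of 21.4 to 53.1 CPM, and Eef2 of 141 to 271 CPM, the extremes being the 3 CORT/Ket mice and the 2 CORT/Sal mice. The CORT/Sal means rest on mouse 9970, which had 33 excitatory neurons with 13741 UMIs, no Mtor UMI and 5 Eef2 UMIs. Mouse 9969 alone had 42.8 CPM of Mtor and 179 CPM of Eef2. Over the 7 members tested in excitatory neurons the median log2 fold change was 0.15 for ketamine, against 0.03 over all 5986 genes, and -0.13 for corticosterone, against -0.04.

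**Figure D4:**
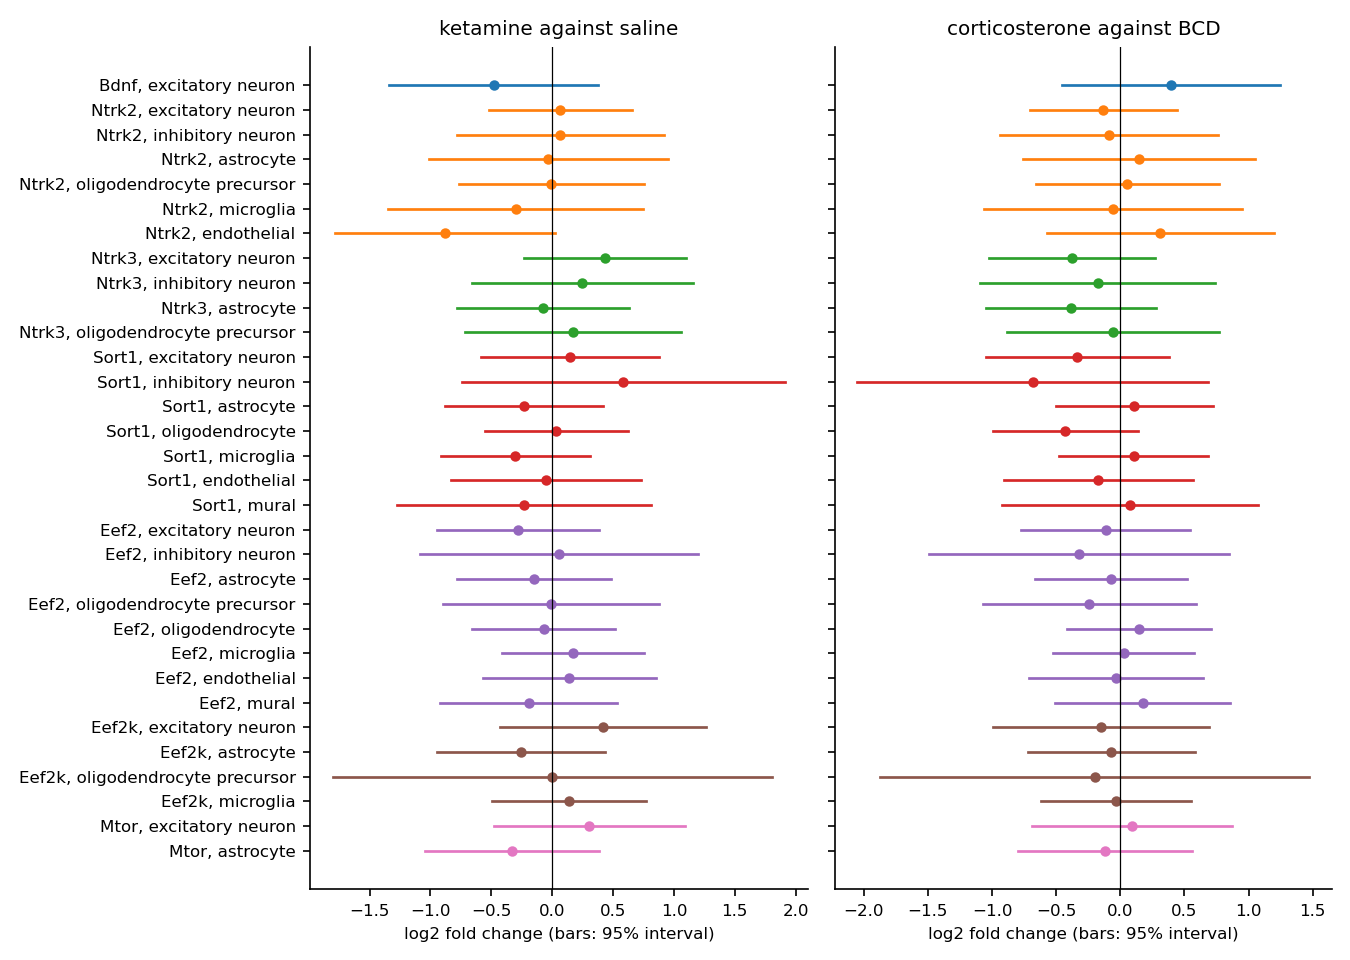
Log2 fold change of each member in each class tested, for ketamine against saline and for corticosterone against BCD (edgeR, 32 tests each), with points at the estimate and bars for the 95% interval. The interval covers 0 for every member, class and treatment shown, and the Ntrk2 interval in endothelial cells ends nearest to it.

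Genes around the members were tested as 6 lists of 99 genes in all. In excitatory neurons, 4 of 9 other neurotrophin, receptor and sortilin-family genes were deep enough to test, 3 of 8 genes of proBDNF processing, 22 of 29 of Trk signalling, 13 of 20 of the mTOR complexes and cap-dependent translation, 11 of 17 of elongation and eEF2 kinase control and 9 of 16 of the activity and dissociation response. None of these passed for ketamine or corticosterone at an adjusted p of 0.05 (edgeR), 1 and 3 had an unadjusted p under 0.05 (1.19% and 3.61% of all genes did), and their list medians lay between -0.58 and 0.44. Over all classes and comparisons, 1 of 1828 tests passed with edgeR (0.0325% over all genes), 49 had an unadjusted p under 0.05 (2.68% over all genes, a like share), and DESeq2 called none.

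The gene that passed was Ddit4, which encodes REDD1, an inhibitor of mTORC1 that glucocorticoids are known to induce. In endothelial cells it was lower with corticosterone, at 36.5 and 293 CPM in the CORT/Sal mice and 0, 41.8 and 86.6 CPM in the CORT/Ket mice, against 148 and 154 CPM in the BCD/Sal mice and 85.7, 141 and 161 CPM in the BCD/Ket mice. The highest and the lowest of the CORT values came from libraries with 11 and 30 endothelial cells, and the value of 293 CPM was 1 UMI. The log2 fold change was -1.34 (SE 0.34, adjusted p = 0.0306, edgeR), where 10 of 5641 genes were called, all lower with corticosterone (0.177%). It lost the call with DESeq2 (adjusted p = 0.448) and without CORT/Sal mouse 9969 (log2 fold change -1.06, edgeR adjusted p = 1.00), CORT/Ket mouse 9968 (-1.19, 1.00), BCD/Sal mouse 9901 (-1.18, 0.522), CORT/Sal mouse 9970 (-1.36, 0.118) or BCD/Ket mouse 9949 (-1.20, 0.0976).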

How the data were processed

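The BLA libraries of 10 mice, 1 per mouse, were used. The deposited matrices hold UMI counts, not normalized, for every gene in every barcode. Their headers name Cell Ranger 3.0.2, the study's methods name mm9 for the alignment, and the submitters' notes also name Seurat 3.1.1. The gene identifiers reach beyond an mm9 annotation, so the annotation counted on is not settled. The dissection text names prefrontal cortices for all samples, and the tissue labels were followed. The mPFC libraries were not analysed here. The 9 genes, the gene lists and the tests were chosen with earlier results of these data known.

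Barcodes with at most 12.5% mitochondrial UMIs and at least 200 genes were kept. They were clustered by Leiden (resolution 0.8, seed 1) on a graph of 20 neighbours in 30 principal components of 2000 variable genes, without the members and pathway genes. A cluster was named when 3 or more markers of a class were among its 50 leading genes. Leading genes had the highest fold and UMIs in 10% or more of the cluster, and a cluster with over 90% of its barcodes from 1 library was kept out of the reference for these folds. No doublets were removed, and 46 kept barcodes recur between libraries. Counts were summed per mouse and class (at least 10 cells) and tested with edgeR 4.0.16 (TMM, filterByExpr, robust quasi-likelihood, Benjamini-Hochberg) in R 4.3.3, or DESeq2 1.42.0. SEs are Wald errors of the fit, and intervals are 95%. In the class fit, 97.5% of 200 genes simulated with a 4-fold change between excitatory neurons and astrocytes were recovered among 7757 genes. The dispersion of these simulated counts was also set to 0.1, not taken from the data. Sign-flip tests used log2(CPM + 10), and a count of 0 was bounded by 3 counts. Intervals on UMIs and shares cover counting error only.

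All members were described in every class, log2 fold changes were quoted at a p under 0.05 or, where said, after the values were seen, and similar genes were the 3 with the highest r among genes with a mean of at least 50 CPM in a class, some of which are not reported here. Clustering used scanpy 1.11.5 with leidenalg 0.10.2, and tables and figures were made with pandas 2.3.3, scipy 1.17.1 and matplotlib 3.10.9 under Python 3.11.15.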

Additional observations from a re-analysis of the deposited data

Results flagged for a closer look

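The members were also counted in barcodes that no main comparison used. In the 20417 removed barcodes, scaled to 1000000 non-mitochondrial UMIs, Bdnf stood at 31.3, Ntf3 at 1.85, Ntrk2 at 552, Ntrk3 at 155, Ngfr at 0.893, Sort1 at 126, Eef2 at 782, Eef2k at 31.0 and Mtor at 37.7. The named classes together had 22.3, 2.27, 620, 155, 0.809, 133, 364, 63.8 and 36.4 on the same scale. Eef2 was thus higher and Eef2k lower in the removed barcodes than in the named classes, without a test between mice.

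In the unnamed cluster of mouse 9970, scaled to 1000000 non-mitochondrial UMIs, Bdnf stood at 22.8, Ntf3 at 2.25, Ntrk2 at 531, Ntrk3 at 259, Ngfr at 1.41, Sort1 at 139, Eef2 at 620, Eef2k at 48.7 and Mtor at 51.2. These values are from 1 library, and each is above the level that a count of 0 allows.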

How the results depend on the processing

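No member passed an adjusted p of 0.05 in any of the 7 treatment comparisons under any of the 25 other settings, in 3565 tests in all. These settings were other normalization (RLE), DESeq2, no filter on low counts, at least 30 cells, only the groups of a contrast, each mouse left out, at least 500 genes, at most 5% mitochondrial UMIs, Scrublet scores, Leiden resolutions 0.4 and 1.2, all genes in the clustering and, chosen after seeing the data, each excitatory cluster alone, the unnamed cluster counted as excitatory and shared barcodes removed. Some of them changed more than their name says. Unnamed barcodes numbered 2429 at the main setting. They numbered 11 with at least 500 genes, 17 at resolution 0.4 and 17 with the highest Scrublet scores removed. Most barcodes of the unnamed cluster of mouse 9970 thus fell in named classes under those settings. Calls were summed over classes and comparisons, so 1 gene can count more than 1 time. The 55 calls of the main setting became 20 with DESeq2, 137 without the filter and 35 with only the groups of a contrast. They became 6 at 5% mitochondrial UMIs and 35 at resolution 1.2. With a mouse left out, pairs of groups with 1 mouse in a group were also tested, unlike for the 55. The counts with a mouse left out therefore do not cover the same tests, and they do not give the effect of that mouse alone. The mice whose omission moved the count over 1.5 times were 9970 (16), 9967 (32), 9947 (87), 9901 (94), 9986 (156), 9968 (169) and 9971 (191). In excitatory neurons no gene was called (71 and 216 had an unadjusted p under 0.05 for ketamine and corticosterone). Over the comparisons there were 15 calls with cluster 4 alone and 1 with the unnamed cluster added. The cause was not tested.

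Between the leading classes, the edgeR fit chosen after seeing the data put Bdnf (4.41), Ntrk2 (1.43), Sort1 (1.05) and Eef2k (1.18) past the threshold that the exact tests could not reach. The order of Ntrk3 in inhibitory and excitatory neurons reversed in that fit (-0.0062), and with a mouse left out its log2 difference was -0.0081 to 0.15. Mtor in astrocytes against excitatory neurons reversed to -0.10 with at least 30 cells, -0.12 with at least 500 genes, -0.073 with all genes in the clustering and -0.18 with the highest Scrublet scores removed, and was -0.10 to 0.29 with a mouse left out. With at least 500 genes or the Scrublet scores removed, most barcodes of the unnamed cluster of mouse 9970 also entered named classes. The part of this in the Mtor values was not tested. The log2 difference of Bdnf was 4.84 with a pseudocount of 1 CPM and 1.28 with 50 CPM, in place of 2.77 with 10 CPM. With a mouse left out, Bdnf ranged from 2.55 to 2.94, Ntrk2 from 1.02 to 1.25, Sort1 from 0.72 to 0.87, Eef2 from 0.35 to 0.64 and Eef2k from 0.26 to 0.59. Bdnf in excitatory neurons kept its sign in all 22 other settings for each treatment (-0.97 to -0.14 for ketamine, 0.06 to 0.89 for corticosterone). Ddit4 in endothelial cells stayed lower in 21 settings and lost the call in 11 of them. No paired analysis was possible because each mouse gave 1 BLA library in 1 treatment group.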
